A study of Mus musculus with 44 samples.

Results

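The Notch receptors *Notch1*, *Notch2* and *Notch3*, the ligands *Jag1* and *Jag2* and the target genes *Hes1*, *Hey1*, *Hey2*, *Heyl* and *Nrarp* were followed in cultured mouse granulosa cells given growth differentiation factor 9 (GDF9). These 10 genes were taken by name as the pathway's receptors, ligands and transcriptional targets, by a rule that used none of their measured values. The choice was nonetheless made with earlier results of these data known. All 10 were among the 25865 genes with values in the RNA table, and each was placed on the mouse genome (GRCm38) so that peaks within 20 kb of it could be read from 32 peak lists. The series holds 44 samples, of which 4 are RNA-seq libraries and 40 are CUT&RUN libraries, in which an antibody directs a nuclease to cut out the DNA it marks. Every group has 2 replicates, and GDF9 or vehicle was given for 4 h.

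The cells came from preovulatory follicles of young female mice primed with gonadotropin, and were cultured for days before the treatment. One line carries an HA tag on 1 allele of *Smad2* (SMAD2-HA/+) and the other a PA tag on both alleles of *Smad3* (SMAD3-PA/PA). Both tags are knock-ins carried by every cell, on a mixed C57BL/6J and 129S5/SvEvBrd background, and vehicle and GDF9 cells of a line share the tagged allele. No untagged line was compared. In SMAD2-HA/+ cells, antibodies to the HA tag, SMAD2, SMAD3 and acetylated lysine 27 of histone H3 (H3K27ac, a mark of active promoters and enhancers) were used. In SMAD3-PA/PA cells, those to the PA tag, SMAD2, SMAD4 and H3K27ac were used. The RNA libraries were, by the study's methods, from SMAD3-PA/PA cells, a genotype that their labels do not give. Cells of several animals were pooled for a sample, and no source states which replicates came from separate animals, so a p-value here covers the spread between these samples alone, and that spread may be technical.

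Notch receptors are cut by ADAM10 and gamma-secretase when a ligand on a neighbouring cell binds them, and the freed intracellular domain joins the DNA-binding protein RBPJ and Mastermind proteins to switch on *Hes*, *Hey* and *Nrarp* genes. In the ovary, NOTCH2 is the receptor known for granulosa cells and JAG1 is a ligand of oocytes and granulosa cells, and mice that lose either form follicles with more than 1 oocyte. GDF9 is secreted by the oocyte, belongs to the TGF-beta family and acts on granulosa cells through SMAD2 and SMAD3, which enter the nucleus with SMAD4.

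The sequences printed here carry the RBPJ and SMAD words that the results refer back to. They were searched on both strands for the RBPJ core TGGGAA, its longer form CGTGGGAA, which contains the core, the SMAD box CAGACA and the SMAD palindrome GTCTAGAC. Promoters are 300 bases, 250 before and 50 after a start site, from RefSeq on GRCm38.p6, and were matched for 7 of the 10 members. Capitals mark the RBPJ words in the *Hey2* promoter (chr10:30842734-30843033, minus strand) and in the *Hes1* window (chr16:30065232-30065389, plus strand), which comes from the peak of SMAD2 signal in GDF9-treated SMAD3-PA/PA cells and is cut 50 bases after a start site. They mark the SMAD box, read on the reverse strand, in the *Notch2* intron window (chr3:98057172-98057471, plus strand) under a SMAD4 region of GDF9-treated cells. The *Notch2* promoter (chr3:98013288-98013587, plus strand) is shown because *Notch2* RNA rose with GDF9, and it holds none of these 4 words.
Hey2 promoter: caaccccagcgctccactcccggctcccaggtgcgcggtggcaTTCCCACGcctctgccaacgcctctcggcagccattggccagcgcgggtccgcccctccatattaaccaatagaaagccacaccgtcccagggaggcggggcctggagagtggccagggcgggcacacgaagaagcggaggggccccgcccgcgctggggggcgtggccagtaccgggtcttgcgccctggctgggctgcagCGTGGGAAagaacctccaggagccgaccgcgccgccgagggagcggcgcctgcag
Hes1 window: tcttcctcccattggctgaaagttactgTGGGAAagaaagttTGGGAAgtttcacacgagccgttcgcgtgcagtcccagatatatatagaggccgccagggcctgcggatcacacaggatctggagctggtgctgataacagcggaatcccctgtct
Notch2 promoter: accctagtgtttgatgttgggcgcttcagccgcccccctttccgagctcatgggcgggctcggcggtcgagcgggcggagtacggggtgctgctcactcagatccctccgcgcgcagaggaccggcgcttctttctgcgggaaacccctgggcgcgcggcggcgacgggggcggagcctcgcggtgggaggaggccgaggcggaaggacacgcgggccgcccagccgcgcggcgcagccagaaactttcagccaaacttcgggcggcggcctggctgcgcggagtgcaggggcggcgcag
Notch2 intron window: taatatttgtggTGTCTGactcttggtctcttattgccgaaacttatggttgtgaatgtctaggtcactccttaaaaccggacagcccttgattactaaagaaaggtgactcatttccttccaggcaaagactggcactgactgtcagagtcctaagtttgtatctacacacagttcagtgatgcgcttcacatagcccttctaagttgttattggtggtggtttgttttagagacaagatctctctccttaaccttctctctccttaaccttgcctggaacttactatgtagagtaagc

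The *Hey2* promoter held CGTGGGAA on both strands. The match on the plus reading starts 5 bases before the start site and that on the reverse strand 207 bases before it. Of 32851 RefSeq promoters of this length, 0.734% held CGTGGGAA at least once and 25.6% the core TGGGAA. None of the other 6 matched member promoters held the core. In the *Hes1* window TGGGAA occurred at bases 29 and 43 on the same strand, and 21.2% of the 9006 windows of that SMAD2 group held the core. The SMAD box in the *Notch2* intron window was shared with 22.9% of the 9185 windows of that SMAD4 group and with 21.0% of the RefSeq promoters. A match describes letters and shows no bound site, and a missing match says only that these letters are not in this window.

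RNA was read from normalized counts, which are reads per gene divided by 1 size factor per library. Reads assigned to genes numbered 10146695 and 10517816 in the GDF9 libraries and 8827825 and 11416005 in the vehicle libraries. Of 12597 genes with a mean of at least 10, 307 were called higher with GDF9 (2.44%) and 89 lower (0.707%), together 3.14%. A call needed a log2 fold change past 0.18 in either direction and a Benjamini-Hochberg adjusted p below 0.05 from limma on log2(value + 1). GDF9 and vehicle libraries also differed in mitochondrial reads (3.38% and 3.07% against 2.37% and 2.35%) and in *Malat1* (0.282% and 0.264% against 0.108% and 0.11%), and the part of this in the results was not tested. Of 10 granulosa cell markers tested, 3 were called higher (*Fst*, *Esr2* and *Hsd17b1*) and 1 lower (*Nr5a2*). The 8 macrophage and leukocyte markers summed to 157 and 163 with GDF9 and to 118 and 127 with vehicle. Of these, 4 were tested and 0 called: *Cd68*, *Cd14* and *Lyz2* were higher in both GDF9 libraries, and *Csf1r* overlapped. *Ptprc* was at 1.01 and 0 with GDF9 against 1.15 and 2.66, and *Adgre1*, *Itgam* and *Mrc1* were between 0 and 5.81. The part of these differences was not tested either. All 12 granulosa cell markers summed to between 34972 and 36041 normalized counts in the 4 libraries, mostly from *Inha*, *Inhba* and *Inhbb*. However, *Cyp19a1*, the aromatase of preovulatory granulosa cells, was between 1.77 and 2.30, and *Amh*, a product of smaller follicles, between 0.89 and 2.90. The 8 surface epithelium markers summed to 5790 and 5968 with GDF9 and to 5545 and 5761 with vehicle. Most of this came from *Krt8*, *Msln* and *Krt18*, and *Lgr5* was between 0 and 2.30. The 10 theca and stroma markers summed to 1719 and 1673 against 1714 and 1738. Most of that came from *Col1a1* (1307 to 1357), with *Ptch1* (177 to 229) and *Dcn* (112 to 128) next. *Cyp17a1* and *Lhcgr* were between 0 and 2.01. The part of such cells in the results was not tested.

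*Notch2* RNA rose with GDF9, and no other member passed the test. Of the 10 members, 7 had a mean of at least 10 and were tested, 1 was called higher (2.44% of all tested genes) and 0 were called lower (0.707% of all). All 7 fold changes were positive, although *Notch1* turned negative in 2 of 12 alternative settings and *Heyl* in 1 of 12, with a median of 0.19 on the log2 scale against -0.01 over all tested genes. In 5 of the 7 both GDF9 libraries lay above both vehicle libraries, which held for 22.0% of all tested genes. An unadjusted p under 0.05 was reached by 3 of the 7 and by 15.6% of all tested genes. No test was run on the members as a list.

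**Figure D1:**
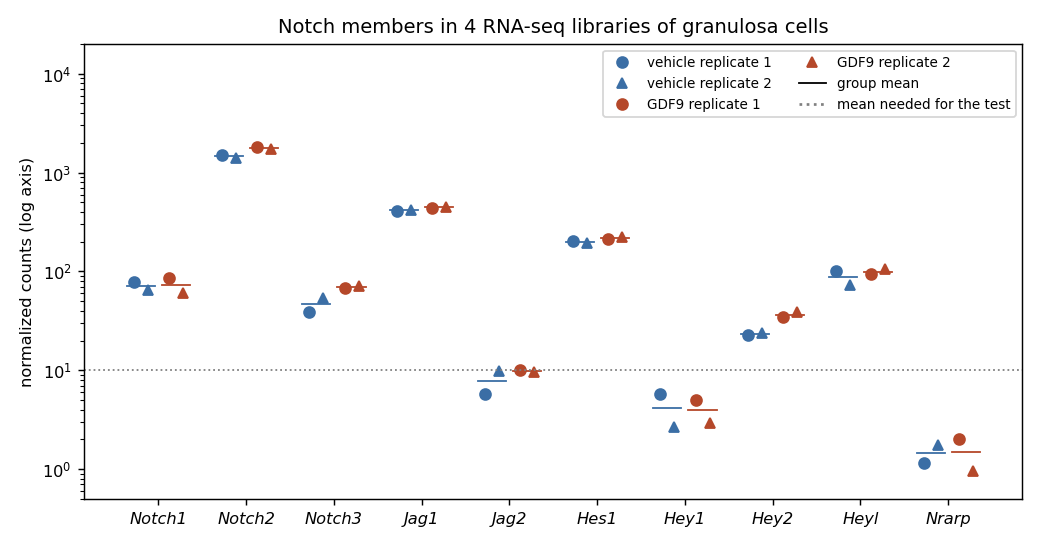
Normalized counts (log axis) of the 10 members in the 2 vehicle (blue) and 2 GDF9 (red) libraries, with group means as lines and the mean of 10 needed for the test as a dotted line. *Notch2* was at 1417 to 1833 in the 4 libraries, *Jag1* at 410 to 445, *Hes1* at 194 to 224, and *Jag2*, *Hey1* and *Nrarp* near or below the line.

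Among the receptors, *Notch2* (chr3:98013527-98150361, plus strand) was measured at 1833 and 1716 normalized counts with GDF9 and at 1515 and 1417 with vehicle. Both GDF9 libraries were above both vehicle libraries, at 1775 ± 82.3 against 1466 ± 69.3 (SD, n = 2 each). The difference was 0.28 on the log2 scale (SE 0.05, 95% interval 0.17 to 0.38), a 1.21-fold rise with an adjusted p of 0.000653 in limma. It lay above 91.9% of the fold changes of all tested genes. Without vehicle replicate 2 the difference was 0.23 and the adjusted p from limma 0.0529. In bulk RNA of this kind, a change in the number of cells of a type and a change in RNA per cell cannot be told apart.

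*Notch3* (chr17:32120820-32166852, minus strand), a receptor best known from pericytes and smooth muscle, was at 68.5 and 70.6 with GDF9 and at 39.0 and 54.0 with vehicle. The groups did not overlap, and the fold change was 1.49 (log2 0.59, SE 0.20, 95% interval 0.17 to 1.00), with a limma adjusted p of 0.116. The interval spans both a small and a large rise. The 10 pericyte and smooth muscle markers summed to 19975 and 20509 with GDF9 and to 19370 and 20002 with vehicle, nearly all of it from *Acta2* and *Tagln*. *Rgs5*, *Kcnj8* and *Abcc9* were between 0 and 1.15 in each library and *Cspg4* between 5.74 and 10.1, whereas *Pdgfrb* (49.3 to 59.4), *Des* (35.4 to 43.6), *Myh11* (78.0 to 104) and *Cnn1* (189 to 223) were higher, and the part of such cells in the *Notch3* values was not tested. *Notch1* (chr2:26457903-26516663, minus strand) was at 86.6 and 61.0 with GDF9 and at 78.1 and 64.7 with vehicle, so the groups overlapped (log2 fold change 0.03, SE 0.19, limma adjusted p = 0.961). Several members overlap other annotated genes: *Gm42819* and *Gm42820* lie on the same strand within *Notch2*, *0610009E02Rik* and *Gm13568* on the opposite strand at *Notch1*, and the antisense *Gm17276* and *Gm38287* at *Notch3* and *Nrarp*. How reads in such overlaps were assigned, and whether counting used the strand, is not given in the sources used here.

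The ligand *Jag1* (chr2:137081456-137116644, minus strand) was at 443 and 445 with GDF9 and at 410 and 418 with vehicle. Both GDF9 libraries were higher, by little: the log2 fold change was 0.10 (SE 0.08, 95% interval -0.05 to 0.25, limma adjusted p = 0.57). *Jag2* (chr12:112907819-112929776, minus strand), the other ligand of this kind, was at 10.1 and 9.68 with GDF9 and at 5.74 and 9.75 with vehicle, that is 10, 10, 5 and 11 reads, and its mean was too low for the test.

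Of the targets, *Hes1* and *Hey2* had higher values with GDF9 in every library, and neither passed the test. *Hes1* (chr16:30064384-30067796, plus strand), a repressor of differentiation genes, was at 213 and 224 with GDF9 and at 204 and 194 with vehicle (log2 fold change 0.14, SE 0.10, 95% interval -0.08 to 0.35, limma adjusted p = 0.588). *Hey2* (chr10:30832359-30842801, minus strand), a related repressor known from heart and arteries and the member whose promoter holds both long RBPJ words, was at 34.2 and 38.7 with GDF9 and at 23.0 and 23.9 with vehicle. This was the largest fitted difference among the 7 tested members, 1.56-fold (log2 0.61, SE 0.26, 95% interval 0.07 to 1.15), with an unadjusted p of 0.0271 and an adjusted p of 0.241 in limma. The 10 endothelial markers, of a cell type that uses *Hey2*, summed to 83.6 and 111 with GDF9 and to 127 and 123 with vehicle, with *Cldn5* at 0 in all 4 libraries, and *Egfl7* made up 44.3 to 70.1 of the sum. None of the 3 tested endothelial markers was called, and their part in the *Hey2* values was not tested.

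*Heyl* (chr4:123233556-123249875, plus strand), a target typical of smooth muscle, was at 93.7 and 105 with GDF9 and at 102 and 73.5 with vehicle. Vehicle replicate 1 lay between the GDF9 libraries (log2 fold change 0.19, SE 0.17, limma adjusted p = 0.628). *Hey1* (chr3:8663359-8667256, minus strand) was at 5.04 and 2.90 with GDF9 and at 5.74 and 2.66 with vehicle, and *Nrarp* (chr2:25180758-25183339, plus strand), a feedback inhibitor that binds the Notch complex, had 2 and 1 reads with GDF9 and 1 and 2 reads with vehicle. A change in *Hey1* or *Nrarp* was not detectable at this depth, and no fold is given for *Nrarp*, whose libraries are all under the floor of 3 reads.

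Per kb of exon, *Notch2* was the highest member in vehicle cells, at 136 normalized counts per kb, followed by *Hes1* at 97.8, *Jag1* at 71.1 and *Heyl* at 17.2. Each of these 4 levels lay clear of its neighbours in both vehicle libraries. *Notch3* at 5.75, *Hey2* at 5.10 and *Notch1* at 5.02 per kb overlapped in their vehicle libraries. *Hey1* at 1.29 and *Jag2* at 1.11 per kb overlapped as well, above *Nrarp* at 0.57. With GDF9 the first 4 stood at 165, 108, 76.2 and 19.5 per kb, in the same order. Among 2520 tested genes with a mean within a factor of 2 of that of *Notch2*, patterns over the 4 libraries were compared with its own. By the distance between centred log2 values, the closest were *Hectd4* (0.02), *Vps13d* (0.03) and *Birc6* (0.03). These genes were picked by this pattern, so their rise with GDF9 follows from the choice.

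**Figure D2:**
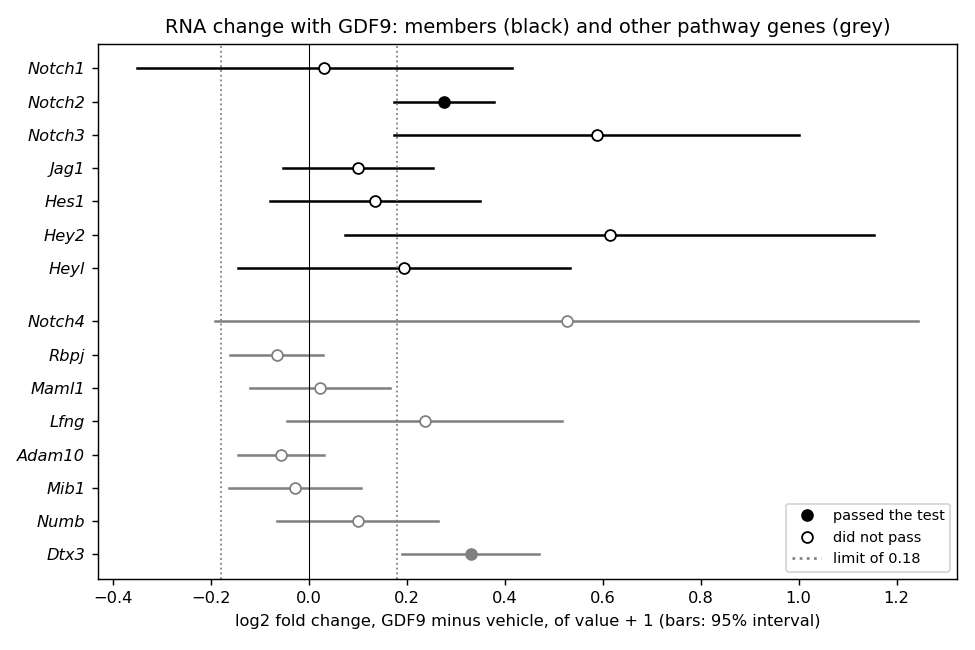
Log2 fold change with GDF9 against vehicle on the log2(value + 1) scale, with 95% intervals from limma, for the 7 tested members (black) and 8 other Notch pathway genes (grey), with the limits of 0.18 dotted. Filled points passed the test, which were *Notch2* at 0.28 and *Dtx3* at 0.33, and the wide intervals of *Notch3*, *Hey2* and *Notch4* belong to low counts.

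Of 58 other genes of the Notch pathway, listed by role and not by how they moved, 48 were tested, 1 was called higher and 0 lower, where 2.44% and 0.707% of all tested genes were. Their fold changes were split between 29 positive and 19 negative, with a median of 0.02, and in 13 both GDF9 libraries lay above both vehicle libraries (22.0% of all tested genes) and in 11 below (23.2%). The 1 called gene was *Dtx3*, a Deltex-family ubiquitin ligase, at 646 and 613 with GDF9 and at 492 and 509 with vehicle, with no overlap (log2 fold change 0.33, SE 0.07, limma adjusted p = 0.00279). DESeq2 on recovered reads did not call *Dtx3* (Benjamini-Hochberg adjusted p = 0.215), and without vehicle replicate 1 its limma adjusted p was 0.0593.

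*Rbpj*, which brings the complex to DNA, was at 1960 and 1852 with GDF9 and at 1981 and 2008 with vehicle (log2 fold change -0.07, limma adjusted p = 0.534), and none of the 9 genes of the nuclear complex was called. *Maml1*, a Mastermind coactivator, was at 577 and 547 against 529 and 577. All 10 cleavage genes were tested and 0 called; *Adam10*, which makes the first cut, was at 2266 and 2335 against 2381 and 2404 (log2 fold change -0.06, limma adjusted p = 0.579). *Mib1*, a ubiquitin ligase by which ligand-bearing cells activate Notch, had a log2 fold change of -0.03 (limma adjusted p = 0.891), and *Numb*, an inhibitor of the receptor, one of 0.10 (limma adjusted p = 0.607). *Lfng*, the Fringe enzyme that sugars Notch receptors and tunes their choice of ligand, was at 128 and 134 with GDF9 and at 103 and 120 with vehicle, with no overlap and no call (log2 fold change 0.24, SE 0.14, limma adjusted p = 0.426). *Notch4*, the remaining receptor, was at 17.1 and 23.2 against 11.5 and 15.9 (log2 fold change 0.53, SE 0.35, limma adjusted p = 0.507), and the Delta ligands *Dll1* and *Dll4* stayed between 0 and 1.77.

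SMAD binding was read as regions, in which peaks of replicate 1 and replicate 2 overlap and are joined, with the total signal (coverage summed over the peak) of each. In SMAD3-PA/PA cells, few replicate 1 peaks met a replicate 2 peak. The share was 11.7% for SMAD2 with GDF9 and 2.22% with vehicle, where 1 list held only 23278 peaks. It was 13.1% and 17.4% for SMAD4, and 13.1% and 5.52% for the PA tag. In SMAD2-HA/+ cells it ran from 25.8% (SMAD2 with GDF9) to 50.3% (SMAD3 with vehicle). In SMAD3-PA/PA cells, 5 of the 10 members had a SMAD2 region within 20 kb with GDF9, *Notch2*, *Notch3*, *Jag1*, *Hes1* and *Hey1*, and 0 had one with vehicle. Of 12503 tested genes placed on the genome, 25.6% had such a region with GDF9 and 3.47% with vehicle. For SMAD4, 1 member had a region with GDF9 (39.4% of all) and 2 with vehicle (37.2% of all), and for the PA tag 0 with GDF9 (7.93%) and 1 with vehicle (6.82%). At promoters, the members with a region were 2 (12.1% of all) and 0 (0.928%) for SMAD2, 1 (18.1%) and 0 (15.2%) for SMAD4, and 0 (1.06%) and 0 (0.984%) for the PA tag, with GDF9 and vehicle in turn. The background genes all had RNA above the filter, which 3 of the members lack.

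**Figure D3:**
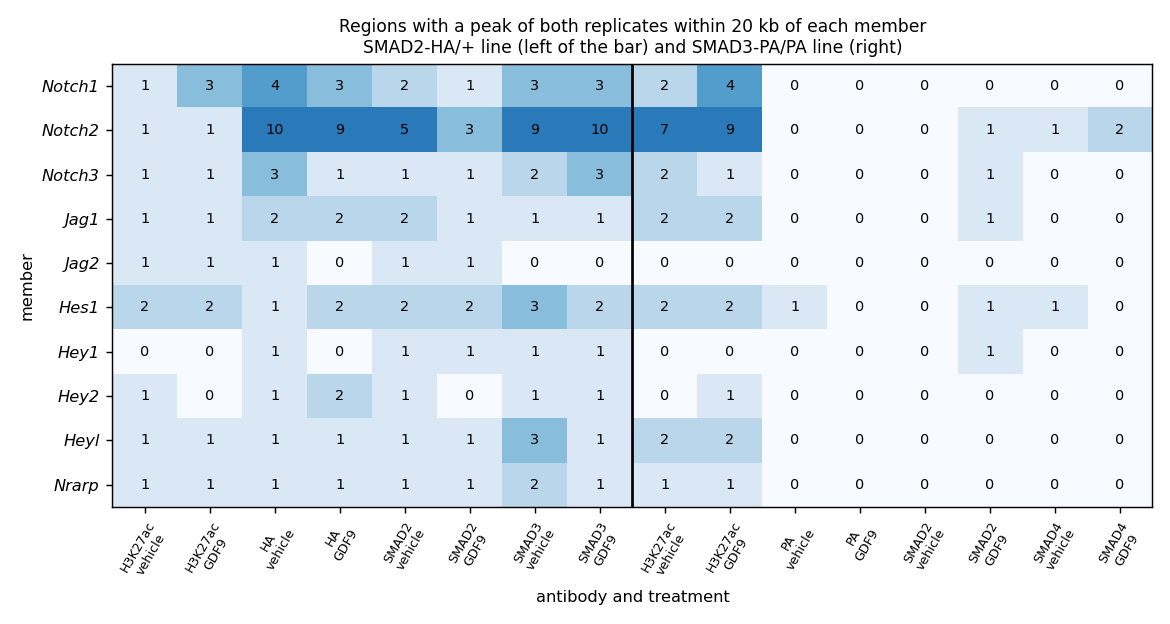
Number of regions with a peak of both replicates within 20 kb of each member (rows) for each line, antibody and treatment (columns), darker for more regions. *Notch2* holds the most in SMAD2-HA/+ cells, up to 10 in a group, and the SMAD and PA columns of the SMAD3-PA/PA line are mostly 0.

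At *Notch2*, the member whose RNA rose, SMAD3-PA/PA cells had 3 regions with GDF9 and 1 with vehicle. The single lists of SMAD4 and the PA tag ran the other way. SMAD4 had 6 and 2 peaks within 20 kb with GDF9 (summed total signal 3449 and 1316) and 7 and 8 with vehicle (5179 and 5631). The PA tag had 1 and 1 peaks with GDF9 against 2 and 5. SMAD2 had 3 and 3 peaks with GDF9 (834 and 1324) and 3 and 0 with vehicle (1064 and 0). The vehicle list without a SMAD2 peak here is the one that held only 23278 peaks. A SMAD4 region at the promoter (chr3:98012624-98013598) had total signals of 502 and 617 in the GDF9 replicates and no peak in either vehicle list, overlapped H3K27ac and met a region in 4 of the 6 SMAD groups of SMAD2-HA/+ cells. The second SMAD4 region, in an intron (chr3:98056975-98058275), which holds the SMAD box printed above, had 764 and 699, a peak in 1 vehicle list and a region over it in 6 of the 6 groups. No SMAD4 region of any member was left, with GDF9 or vehicle, when 50% of both peaks had to be shared. A SMAD2 region centred at -2703 bases from the 5' end (chr3:98010370-98011278) had 278 and 455 with no peak in either vehicle list, lay outside H3K27ac and met a region in 1 of the 6 groups. With vehicle, SMAD4 lay in another intron stretch (chr3:98024288-98025501) with 693 and 1435.

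*Hes1* had 1 region for each of 3 groups in SMAD3-PA/PA cells. That of SMAD2 with GDF9 (chr16:30064653-30065496) covers 1 of the 4 annotated starts, downstream of the gene's 5' end, and the 2 TGGGAA words, had total signals of 321 and 530 with no peak in either vehicle list, overlapped H3K27ac and met a region in 6 of the 6 SMAD2-HA/+ groups. The SMAD4 region with vehicle (chr16:30071305-30073549) lay 8043 bases past the 5' end with 1060 and 773, and the PA region with vehicle (chr16:30084964-30085899) 21047 bases past it with 344 and 231.

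The other members with a SMAD2 region in GDF9-treated SMAD3-PA/PA cells had it away from the promoter. For *Jag1* its centre lay at -18117 bases from the 5' end (chr2:137133993-137135530, total signals 464 and 568), and for *Hey1* at 14118 bases (chr3:8652911-8653365, 257 and 394), both outside H3K27ac and met by 0 of the 6 SMAD2-HA/+ groups. For *Notch3* it lay at 57832 bases, past the gene's 3' end (chr17:32108559-32109482, 296 and 500), at the promoter of *Pdxk-ps*, with H3K27ac and a region in 6 of the 6 groups. So 3 of these 5 SMAD2 regions met a region in the other line, where 39.7% of all 9006 did.

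**Figure D4:**
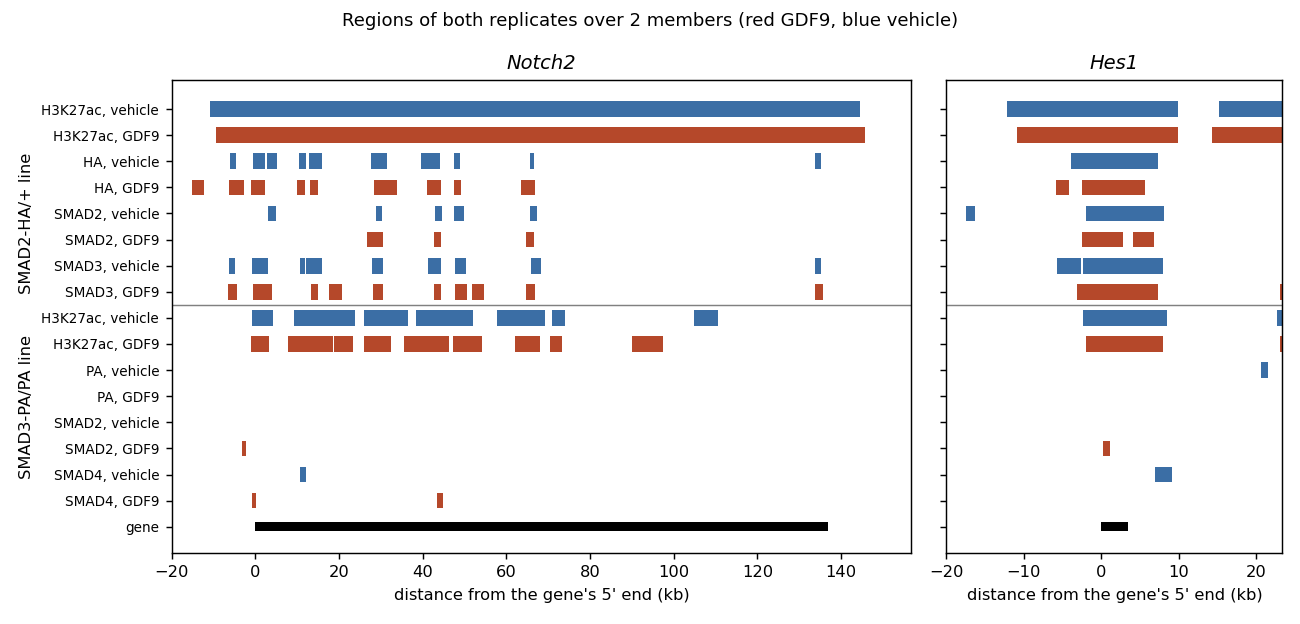
Regions of both replicates along *Notch2* and *Hes1*, by distance from the gene's 5' end in kb, for SMAD2-HA/+ cells (upper rows) and SMAD3-PA/PA cells (lower rows), with GDF9 in red, vehicle in blue and the gene in black. *Hes1* carries a promoter region in all 6 SMAD groups of SMAD2-HA/+ cells, and *Notch2* carries many intron regions within broad H3K27ac.

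In SMAD2-HA/+ cells most genes had a SMAD region nearby, and so did most members. Within 20 kb, a region of the HA tag was found for 8 members with GDF9 (90.1% of all genes) and 10 with vehicle (93.8%), of SMAD2 for 9 (80.3%) and 10 (86.9%), and of SMAD3 for 9 (91.4%) and 9 (94.9%). At promoters the counts were 4 (74.0%) and 6 (81.4%) for HA, 3 (60.7%) and 4 (72.0%) for SMAD2 and 7 (77.2%) and 6 (84.7%) for SMAD3. Of 123 regions near members in these 6 groups, *Notch2*, the longest gene at 137 kb, held 46, of which 45 overlapped H3K27ac and 6 were at a promoter. Its strongest, of the HA tag with GDF9 (chr3:98054596-98057825, 687 and 1698), overlaps the intron region of SMAD4 in SMAD3-PA/PA cells.

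The members differed in where these regions lay. *Hes1* had 8 of 12 and *Jag1* 8 of 9 at a promoter, in all 6 groups. The widest *Hes1* regions ran over the whole gene, with SMAD3 total signals of 3924 and 3729 with vehicle (chr16:30062105-30072346) and 3090 and 3633 with GDF9 (chr16:30061328-30071748). The *Jag1* promoter region had HA signals of 1232 and 1495 with GDF9 (chr2:137113441-137119129) and 1009 and 1182 with vehicle (chr2:137112896-137118516), and SMAD3 signals of 1265 and 1380 against 1394 and 1330. The HA signal of *Jag1* was higher with GDF9 in both replicates and its SMAD3 signal was not; over the whole lists the summed HA signal was also higher with GDF9, at 60336523 and 66947943 against 51660362 and 45469357. These signals were not tested.

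*Hey1* and *Hey2* each had 5 promoter regions, in 5 of the 6 groups, and none of their regions overlapped H3K27ac in SMAD2-HA/+ cells. The *Hey2* promoter region, which contains the promoter printed above, had SMAD3 total signals of 823 and 758 with GDF9 (chr10:30841086-30845362) and 698 and 595 with vehicle (chr10:30840692-30845195). That of *Hey1* had SMAD3 signals of 432 and 308 with GDF9 (chr3:8666480-8668320) and 1023 and 745 with vehicle (chr3:8664568-8668663), the vehicle region being the wider.

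*Heyl*, *Nrarp* and *Jag2* had no promoter region in any of the 6 groups. *Heyl* had 1 recurring region upstream in all 6, with HA signals of 723 and 1054 with GDF9 (chr4:123219706-123221566) and 697 and 566 with vehicle (chr4:123219506-123221815). The strongest region of *Jag2*, of the HA tag with vehicle (chr12:112897300-112898811), reached only 321 and 271.

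For 3 members the strongest region lay at the start of another gene. That of *Nrarp* (HA with GDF9, chr2:25195110-25197823, 383 and 698) was at the promoter of *Tor4a*. That of *Notch3* (HA with GDF9, chr17:32107895-32111172, 971 and 886) was at the starts of *Pdxk-ps* and *Gm17276*. That of *Notch1* (HA with GDF9, chr2:26442542-26448160, 3847 and 6054) was at the promoters of *Sec16a* and of *0610009E02Rik*, which overlaps *Notch1*. Which gene these signals belong to was not tested.

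*Notch2*, *Jag1* and *Hes1* had H3K27ac at a promoter in all 4 groups. Within 20 kb, a region was found for 8 members with GDF9 (85.8% of all genes) and 7 with vehicle (86.5%) in SMAD3-PA/PA cells, and for 8 (91.8%) and 9 (89.2%) in SMAD2-HA/+ cells. At promoters, SMAD3-PA/PA cells had one for 5 members with GDF9, *Notch1*, *Notch2*, *Jag1*, *Hes1* and *Hey2* (71.9% of all genes), and 3 with vehicle, *Notch2*, *Jag1* and *Hes1* (72.1%). In SMAD2-HA/+ cells 6 had one with GDF9 (83.2%), *Notch1*, *Notch2*, *Notch3*, *Jag1*, *Hes1* and *Heyl*, and 7 with vehicle (81.2%), these and *Jag2*. With vehicle, the promoter peaks of *Jag2* (1 and 0) and *Notch1* (2 and 0) lay in replicate 1 alone. The *Hey2* promoter region of GDF9-treated SMAD3-PA/PA cells (chr10:30837907-30843896) had total signals of 24310 and 17257, and 1 of the 2 vehicle lists held a peak there, so the count of regions differs by 1 list. For *Notch1* in SMAD3-PA/PA cells, replicates 1 and 2 held 0 and 1 promoter peaks with GDF9 and also 0 and 1 with vehicle. Its promoter region with GDF9 thus shows no gain of promoter peaks. *Hey1* had no H3K27ac region in any group.

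**Figure D5:**
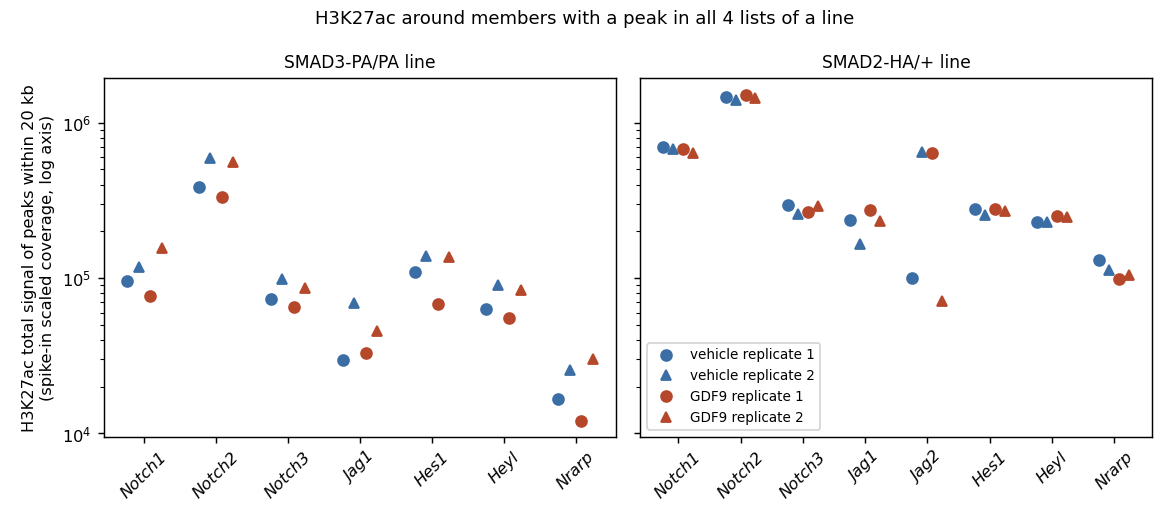
Summed H3K27ac total signal (spike-in scaled coverage, log axis) of all peaks that reach within 20 kb, each counted whole, in each replicate. Members shown have a peak in all 4 lists of a line, with vehicle in blue and GDF9 in red. In SMAD3-PA/PA cells replicate 2 is above replicate 1 for every member in both treatments, and *Jag2* in SMAD2-HA/+ cells is split between replicates of each treatment.

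The summed H3K27ac signal around the members was not distinguishable between GDF9 and vehicle. Around *Notch2* it was 332170 and 556855 with GDF9 and 386091 and 590070 with vehicle in SMAD3-PA/PA cells (log2 difference -0.15, SE 0.54, limma adjusted p = 1). In SMAD2-HA/+ cells it was 1513660 and 1438340 against 1465420 and 1409720 (log2 difference 0.04, SE 0.06, limma adjusted p = 0.855). In both lines the *Notch2* values overlapped.

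In SMAD3-PA/PA cells 0 of 7 members tested were called, where 0.0217% of 13847 genes were (0.00722% higher and 0.0144% lower), and at an unadjusted p under 0.05 also 0, against 1.29% of all. Their log2 differences ran from -0.36 (*Hes1*) to 0.06 (*Notch1*) with SEs of 0.54 to 0.62. Replicate 2 was 1.23 to 2.48 times replicate 1, over both treatments. The fit had no replicate block and could not detect a difference of this size. In same-numbered lists GDF9 was below vehicle both times for *Notch2*, *Notch3*, *Hes1* and *Heyl*, as over the whole lists. For *Hes1* the values of replicate 2 were close, at 137055 and 138036. *Notch1*, *Jag1* and *Nrarp* were split. No label pairs these lists, and deviations of same-numbered lists correlated at 0.004 over the tested genes. Such a correlation cannot show an offset common to a whole list. In SMAD2-HA/+ cells 0 of 8 members were called, where 0.775% of 15218 genes were (0.0986% higher and 0.677% lower), and at an unadjusted p under 0.05 also 0, against 7.04% of all. The lowest limma adjusted p of the 8 was 0.772.

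In SMAD3-PA/PA cells the groups overlapped for all 7 members, where 3.39% of all genes had both GDF9 lists above both vehicle lists and 10.8% below. In SMAD2-HA/+ cells 1 of 8 members lay above (9.37% of all genes) and 1 below (31.6%). *Heyl* had 251725 and 246462 with GDF9 and 230156 and 229785 with vehicle (log2 difference 0.12, SE 0.07), and *Nrarp* 98793 and 104786 against 130931 and 113472 (log2 difference -0.26, SE 0.13). *Jag1* had the largest positive difference, 275378 and 231340 against 237268 and 165431 (0.35, SE 0.24). *Jag2* was at 642564 and 70718 against 100638 and 643631, where 1 broad neighbouring peak reached its window in 1 list of each treatment.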

How the data were processed

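Mouse granulosa cells of 2 tagged lines were profiled by RNA-seq (4 libraries) and CUT&RUN (40 libraries, of which 32 have peak lists used here; the 8 IgG libraries were not used here). The deposited RNA values (signal) are the authors' normalized counts, that is reads divided by 1 size factor per library: the authors aligned reads from directional poly-A libraries with STAR 2.7.11b, counted them with featureCounts 2.1.1 and normalized them with DESeq2 1.48.2. For that counting, neither strand setting nor annotation is given in the sources used here. Values were whole multiples of 1 step per library within 0.05 reads, which gave back whole reads. In GDF9 replicate 1 that step lies close to 1. The table has 1314 entries without values, 3 columns without a header, which were not used, and the authors' mean. The peak lists hold total and maximum signal, that is coverage that the authors scaled to *E. coli* spike-in reads after Bowtie2 alignment, with peaks called per sample by SEACR in its stringent mode. A peak list has no signal outside peaks, and the depth behind it is unknown.

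The members and gene lists were chosen with earlier results of these data known. RNA was tested with limma 3.58.1 (trend) in R 4.3.3 on log2(value + 1) for genes with a mean of at least 10, without a replicate block, and p-values were adjusted by Benjamini-Hochberg over 12597 genes. With 2 against 2 libraries an exact permutation test cannot go below a two-sided p of 0.333, so none was used. Peaks of replicates were joined with bedtools 2.31.1 where they shared at least 1 base. A promoter was 3 kb either side of any transcript start (GENCODE annotation of GRCm38), and a gene's window its span with 20 kb on each side. H3K27ac was tested by limma on log2(value + 1) within a line, over genes with a peak in all 4 lists, without a replicate block. The value was the summed total signal of every peak that touched the window, each counted whole, with any part outside it. Median H3K27ac peak widths were 18.6 to 29.3 kb in SMAD2-HA/+ cells, so much of a value can lie outside the window. SMAD signals were not tested. The scripts were tested on simulated data. Besides the members, the text names pathway genes that were called, 9 others whatever their values (*Rbpj*, *Maml1*, *Notch4*, *Dll1*, *Dll4*, *Lfng*, *Adam10*, *Mib1* and *Numb*), the 3 genes most like a called member, promoter regions, each member's strongest SMAD region, and marker genes. Some results on other genes are not reported here. Alternatives were other offsets, filters, scalings, edgeR 4.0.16 and DESeq2 1.42.0 on recovered reads, a replicate block, each replicate left out, stricter peaks and overlaps and other windows.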

Additional observations from a re-analysis of the deposited data

How the results depend on the processing

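*Notch2* kept a positive fold change in 12 of 12 alternatives, between 0.23 and 0.32, with adjusted p between 4.66e-07 and 0.0529, and its call was lost only without vehicle replicate 2. *Notch3* (0.36 to 0.82) was positive in 12 of 12 and *Hey2* (0.53 to 0.70) in 11 of 11 alternatives, with lowest adjusted p of 0.0529 and 0.214. *Notch1* was negative in 2 of 12 and *Heyl* in 1 of 12. Of 83 RNA alternatives of members 82 kept their side of the threshold, as did all 117 of their H3K27ac alternatives.

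Over all genes, 307 higher calls became 161 with no filter and 112 with DESeq2, and 190 to 366 with a replicate left out, and 89 lower calls became 26, 16 and 20 to 220, or 142 with the replicate block. Deviations of same-numbered RNA samples correlated at 0.005 over the tested genes. Such a correlation cannot show an offset common to a whole library. Over the H3K27ac lists of SMAD3-PA/PA cells, summed signal was higher in replicate 2 in both treatments. The replicate block raised the higher RNA calls to 393 and left the member counts as they were. Leaving a replicate out gave 0 to 1 higher members, 0 to 2 higher pathway genes and 0 to 1 lower. DESeq2 called 0 pathway genes higher. The 3 H3K27ac calls in SMAD3-PA/PA cells and 118 in SMAD2-HA/+ cells became 0 and 0 with the block, 0 to 4 and 0 to 0 with a replicate left out, and 763 and 812 on the number of peaks, where 24.9% and 63.7% of genes had equal numbers in both replicate pairs, so that the variance estimate is unreliable.

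Of 80 region alternatives, 55 stayed within 1.5 times the count of members. In SMAD3-PA/PA cells the 5 members with a SMAD2 region with GDF9 became 2 with the upper 50% of peaks, 2 with 50% of both peaks shared and 3 within 10 kb, and 8 to 10 with 1 replicate alone. The same 1-replicate range was 2 to 7 for SMAD2 with vehicle, 8 to 8 for SMAD4 with either treatment, 5 to 5 for PA with GDF9, 7 to 8 for PA with vehicle, and 3 to 6 for promoter H3K27ac with vehicle. Members with a SMAD4 region fell to 0 with GDF9 and 0 with vehicle when 50% of both peaks had to be shared, and to 1 with vehicle for the upper 50% of peaks. PA with vehicle fell to 0 for the upper 50% and to 0 within 10 kb. Promoter H3K27ac fell to 3 with GDF9 when 50% of both peaks had to be shared and to 1 with vehicle for the upper 50%. In SMAD2-HA/+ cells, SMAD2 within 10 kb gave 4 with GDF9 and 5 with vehicle. Reads of *Jag2*, *Hey1* and *Nrarp* limit any statement on them.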
